A study of Mus musculus with 24 samples.

Results

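A 1700 kb block of mouse chromosome 8 that holds most of Tenm3 and all of Wwc2 and Dctd is described here through 28 neighbouring 100 kb bins of a raw count table with 27268 bins. The bins were taken by position, chr8:47000001-49800000 in the mm10 build. They comprise 17 bins of the block, chr8:47500001-49200000, 5 bins of flank before it and 6 bins of flank after it. The block had been chosen by its CPM in female libraries, which were lower in SIRT7-KO than in WT. All female KO and WT levels in the window, and the contrast between them, are therefore a description without a test. Within the window, tests are given only for male libraries, which the choice did not use.

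The libraries came from chromatin immunoprecipitation sequencing of primary mouse embryonic fibroblasts (MEFs) of strain C57BL6. The 12 groups of 2 libraries were SIRT7-KO female, SIRT7-KO male, WT female and WT male cells, each as gH2AX, H2AX and input. SIRT7 is a NAD-dependent deacetylase, H2AX is a variant of histone H2A, gH2AX is its form phosphorylated around DNA breaks, and input is chromatin without an antibody. All 24 libraries came from cells that had received 5 Gy of X-rays with 30 minutes of recovery, so no unirradiated cells were analysed here. The labels do not give the knockout allele, or say how many embryos or cultures stand behind a group. Every p-value therefore measures only the spread between these libraries, and genotype and culture cannot be told apart within a sex. The assay counts DNA, not RNA, so the fibroblast label could not be checked against marker genes.

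Totals ranged from 66.9 M to 269 M reads per library (M is 1e6). Chromosome Y held 0.0868% to 0.100% of the reads in the 12 female libraries and 1.54% to 1.62% in the 12 male libraries. The bin that holds Sirt7 (chr11:120600001-120700000) had 34.6 to 37.7 CPM in the 4 KO inputs and 34.5 to 36.6 CPM in the 4 WT inputs, and a 100 kb bin does not resolve a deletion within a gene. CPM are reads per 1e6 autosomal reads, scaled by TMM factors. In the 28 bins of the window a library held 1740 to 12736 reads per bin, so counting error was small. The 2 libraries of a group differed by more than counting error: chi-square over its degrees of freedom lay between 2.59 and 3.87 in the 12 groups.

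Teneurins are large transmembrane proteins that bind latrophilins on neighbouring cells and guide the matching of neurons during wiring, and Tenm3 encodes a teneurin. Wwc2 encodes a WW-domain scaffold protein of the family of KIBRA, which acts upstream of the LATS kinases in the Hippo growth-control pathway. Dctd encodes deoxycytidylate deaminase, which turns dCMP into dUMP and so feeds the synthesis of thymidine nucleotides.

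The window overlapped 36 annotated genes, 11 of them protein-coding. Tenm3 (gene ID 23965, chr8:48225665-49522824, minus strand) is 1297 kb long. Its 3′ portion of 974 kb fills the distal bins of the block, and the 323 kb next to its annotated 5′ end lie in the flank. Wwc2 (gene ID 52357, chr8:47826082-47990544, minus strand) and Dctd (gene ID 320685, chr8:48099092-48141667, plus strand) lie wholly inside. The other protein-coding genes inside were Rwdd4a, Ing2, which encodes a reader of methylated histone H3, Cdkn2aip, which encodes a binding partner of ARF, and the claudin genes Cldn24 and Cldn22. Trappc11, which encodes a subunit of the TRAPP vesicle-tethering complex, crosses the proximal edge, and Enpp6 and Stox2 lie in the proximal flank. Single genes were read through the 100 kb bins they fill, so no value is specific to an exon, promoter or gene.

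The 250 bases upstream of a listed transcription start of each of Tenm3, Wwc2 and Dctd are shown because all of them fall inside the block. They are RefSeq sequences of GRCm38.p6, printed 5′ to 3′ on the strand of the gene. Capitals mark matches, on either strand, to the GC box (GGGCGG or CCGCCC) and to the cAMP response element (TGACGTCA).
Tenm3, chr8:48674691-48674940, minus strand: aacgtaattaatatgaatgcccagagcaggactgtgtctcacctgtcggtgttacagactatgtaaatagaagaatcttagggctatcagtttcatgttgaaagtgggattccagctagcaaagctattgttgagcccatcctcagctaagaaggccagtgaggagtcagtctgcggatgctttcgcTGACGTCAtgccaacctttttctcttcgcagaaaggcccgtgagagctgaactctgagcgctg
Wwc2, chr8:47990545-47990794, minus strand: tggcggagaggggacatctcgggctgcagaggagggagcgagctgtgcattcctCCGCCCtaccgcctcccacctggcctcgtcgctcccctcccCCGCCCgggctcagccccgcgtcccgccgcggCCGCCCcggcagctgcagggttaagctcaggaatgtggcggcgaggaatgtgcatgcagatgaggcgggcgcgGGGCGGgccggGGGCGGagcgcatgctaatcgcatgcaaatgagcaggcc
Dctd, chr8:48098842-48099091, plus strand: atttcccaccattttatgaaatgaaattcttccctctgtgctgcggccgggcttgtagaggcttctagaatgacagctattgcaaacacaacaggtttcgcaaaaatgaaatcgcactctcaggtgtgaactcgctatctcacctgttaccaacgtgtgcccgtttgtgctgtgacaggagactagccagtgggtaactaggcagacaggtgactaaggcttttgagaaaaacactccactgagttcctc
The Wwc2 sequence was 72.0% G and C and held 5 GC boxes, the Tenm3 sequence was 47.6% G and C and held 1 cAMP response element, and the Dctd sequence was 47.2% G and C and held neither motif. The CCAAT box (CCAAT or ATTGG) was in none of them. Among 32841 such windows of the table, 32.7% held a GC box, 33.9% a CCAAT box and 1.55% a cAMP response element, and the median share of G and C was 52.4%. The Tenm3 start in the table is an internal one, 848 kb downstream of the gene's annotated 5′ end. Dctd has 3 listed starts and only 1 is shown, so its other starts are not described. A match is a description of these letters and not a bound site.

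In input DNA the block was well below the WT level in KO females and near the WT level in KO males. Its mean level per bin was 20.7 and 20.8 CPM in the KO female inputs, against 37.8 and 38.0 CPM in the WT female inputs. The ratio of the means was 0.547 (log2 -0.87), with 20.7 ± 0.0798 CPM in KO and 37.9 ± 0.162 CPM in WT females (SD, n = 2 each). The KO male inputs had 38.0 and 37.5 CPM and the WT male inputs 37.2 and 37.6 CPM, so the male groups overlapped. A lower level in bulk libraries does not tell fewer copies in every cell from a fuller loss in some of the cells.

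The antibody libraries had a lower level in KO females too. H2AX in the block was 21.9 and 21.7 CPM in KO females, against 39.7 and 39.4 CPM in WT females, a ratio of 0.551. gH2AX in the block was 22.5 and 22.1 CPM in KO females, against 41.3 and 41.1 CPM in WT females, a ratio of 0.541. For each of the 3 assays, all 17 block bins were lower in both KO female libraries than in all 6 libraries of the other groups. Over the genome, 0.132% of the tested bins were called lower in KO females for input, 0.121% for H2AX and 0.595% for gH2AX (edgeR's quasi-likelihood test, adjusted p under 0.05). The share of all bins that lay below the other 6 libraries was not counted, and shares of calls are another measure. Nothing is read from these counts or shares, since the contrast of KO with WT females chose the block.

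**Figure D1:**
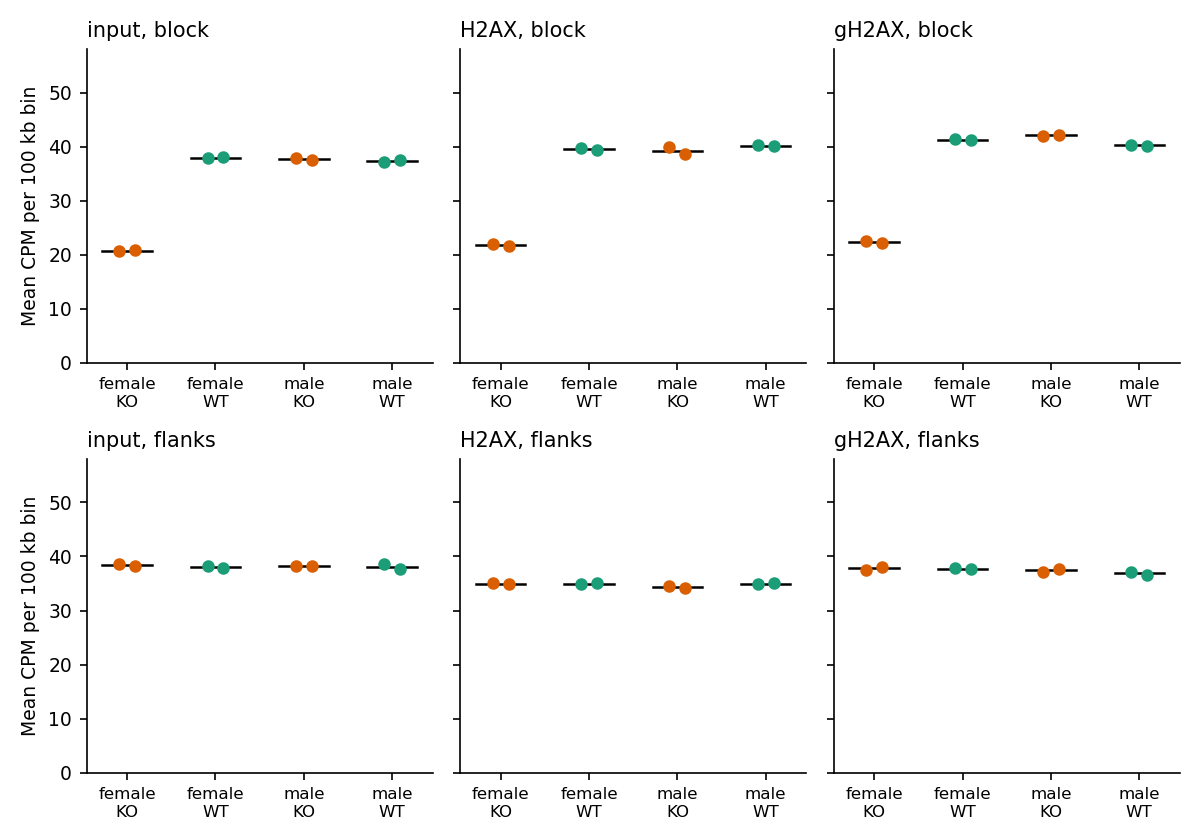
Mean CPM per 100 kb bin (y axis) of each library over the 17 bins of the block (top) and the 11 bins of its flanks (bottom), for input, H2AX and gH2AX. Points are libraries and bars the mean of the 2 libraries of a group. In the block the KO female libraries sit between 20.7 and 22.5 CPM and the libraries of all other groups between 37.2 and 42.1 CPM, while in the flanks the groups lie close together.

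The flanks did not share the lower level. Over the 11 flank bins, input was 38.7 and 38.2 CPM in KO females, against 38.2 and 37.9 CPM in WT females, a ratio of 1.01, and the ratio was 0.999 for H2AX and 1.00 for gH2AX. Within each library, the level of the block over that of its own flanks was 0.535 to 0.545 in KO female input, against 0.964 to 1.00 in the other 6 inputs. It was 0.622 to 0.625 in KO female H2AX, against 1.12 to 1.16 in the other 6 H2AX libraries. It was 0.581 to 0.599 in KO female gH2AX, against 1.08 to 1.13 in the other 6 gH2AX libraries. These ratios use no scaling between libraries.

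The 17 bins fell into 15 inner bins at nearly 1 level and an edge bin at either end. Over the 15 inner bins together, the ratio of KO to WT females was 0.515 for input, 0.520 for H2AX and 0.510 for gH2AX. Group means of the inner bins ran from 18.3 to 21.6 CPM in KO female input, against 34.8 to 39.6 CPM in WT female input. In no assay did an inner bin of KO females reach the lowest inner bin of WT females.

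Bin by bin, the ratios of the inner block spread over a narrow range. The input ratio ran from 0.482 in the Tenm3 bin at 900 to 1000 kb from the block's start to 0.581 in the Tenm3 bin at 1400 to 1500 kb. That bin at 1400 to 1500 kb also had the highest inner ratio for H2AX, 0.563, and for gH2AX, 0.551. The SD over the 15 bins was 0.0273 for input, 0.0215 for H2AX and 0.0238 for gH2AX. The counting standard error of a bin's ratio was smaller, with a median of 0.00882, 0.00792 and 0.0093 in the same order. Libraries of a group differed by more than counting error, and whether the SD exceeds the error between libraries was not tested. Across the 15 bins, Pearson's r of the ratios was 0.76 between input and H2AX, 0.68 between input and gH2AX and 0.39 between H2AX and gH2AX. Spearman's coefficient was lower, at 0.58, 0.49 and 0.29 in the same order. The assays share the bins and their base composition but no library.

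The change of level at the edges fell within 1 bin on either side. The bin before the block (chr8:47400001-47500000, Stox2 and Trappc11) had 35.5 and 36.7 CPM in KO female input, against 36.1 and 35.1 CPM in WT female input, and these groups overlapped. The first block bin, with Trappc11 and Rwdd4a, had 28.6 and 26.8 CPM in KO female input, against 35.8 and 36.4 CPM in WT female input. Its ratio was 0.767 for input, 0.729 for H2AX and 0.729 for gH2AX, between the inner and the flank level. If reads lay evenly along this bin, 48.1, 56.5 and 55.4 kb of its 100 kb would have the inner ratio in input, H2AX and gH2AX.

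The distal edge lay within Tenm3. The last block bin had 30.6 and 31.9 CPM in KO female input, against 38.6 and 39.0 CPM in WT female input. Its ratio was 0.806 for input, 0.896 for H2AX and 0.859 for gH2AX, which by the same reckoning is 39.9, 21.7 and 28.8 kb at the inner ratio. The 100 kb bins do not place either edge more closely. The next bin, chr8:49200001-49300000, had 39.4 and 39.7 CPM in KO female input, against 40.2 and 39.3 CPM in WT female input, and overlapped. H2AX in that bin was 33.6 and 32.9 CPM in KO females, against 31.0 and 30.2 CPM in WT females, and gH2AX was 38.8 and 38.4 CPM in KO females, against 36.0 and 36.6 CPM in WT females. Such gaps were not limited to this bin. Of the 11 flank bins, 4 were higher and 3 lower in KO females without overlap for H2AX. For gH2AX 1 was higher and 1 lower, and for input 2 were higher and 1 lower. With 2 libraries against 2, full separation corresponds to an exact permutation p of 0.333, the smallest possible. The share of such bins over the genome was not counted, so nothing is read from these gaps.

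**Figure D2:**
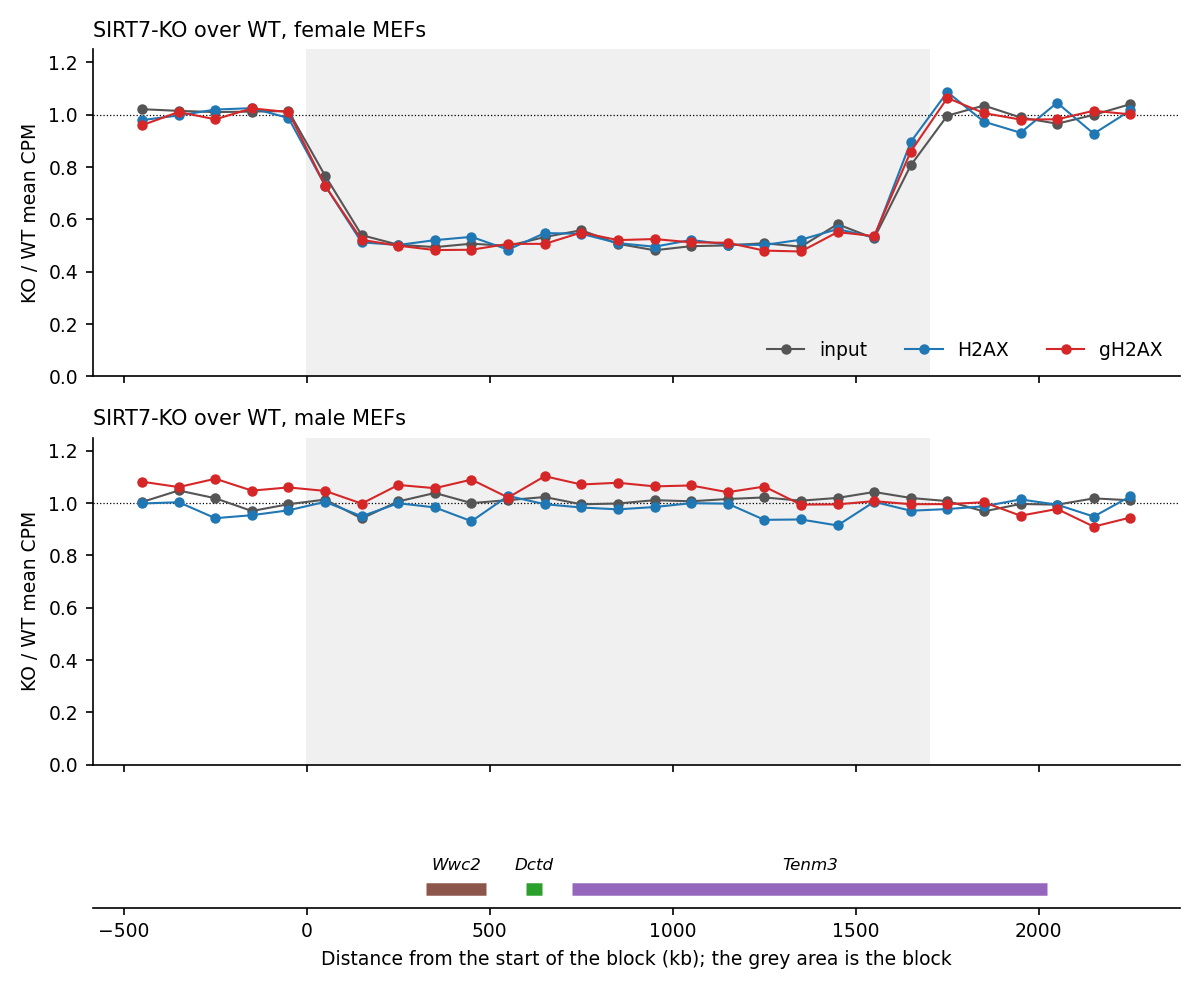
Ratio of mean CPM in KO to WT MEFs (y axis) for each 100 kb bin against the distance from the block's start (x axis, kb), in females (top) and males (middle), with the bodies of Wwc2, Dctd and Tenm3 below. In females the 15 inner bins lie between 0.477 and 0.581 in all assays, the edge bins between 0.729 and 0.896 and the flanks near 1; in males the bins of the block lie between 0.914 and 1.103.

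Tenm3 carried both levels within 1 gene body. Its 10 bins in the block averaged 20.9 and 21.0 CPM in KO female input, against 38.2 and 38.5 CPM in WT female input, a ratio of 0.547. Its 4 bins in the distal flank, on the side of the annotated 5′ end, averaged 39.9 and 39.2 CPM in KO female input, against 39.8 and 39.6 CPM in WT female input, a ratio of 0.997. The portion next to the 3′ end was thus low in KO females and the portion next to the 5′ end was not.

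The marks over Tenm3 had the same split. In the block bins H2AX was 20.9 and 20.6 CPM in KO females, against 37.4 and 37.4 CPM in WT females, and gH2AX was 22.1 and 21.7 CPM in KO females, against 39.8 and 40.1 CPM in WT females. The ratios were 0.554 for H2AX and 0.549 for gH2AX. In the flank bins the ratio was 1.01 for H2AX and 1.01 for gH2AX, and the groups overlapped in both.

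Wwc2, read through 2 bins, was low over its whole body. Its bins averaged 18.8 and 19.5 CPM in KO female input, against 38.4 and 38.2 CPM in WT female input, a ratio of 0.501. H2AX was 25.3 and 26.2 CPM in KO females, against 50.3 and 47.6 CPM in WT females, a ratio of 0.527. gH2AX was 21.7 and 22.5 CPM in KO females, against 46.6 and 44.8 CPM in WT females, a ratio of 0.483. H2AX over Wwc2 was above the input level in both female groups.

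Dctd, read through the bin that holds nearly all of its body, had 18.2 and 18.8 CPM in KO female input, against 35.1 and 34.5 CPM in WT female input, a ratio of 0.532. H2AX was 23.2 and 24.5 CPM in KO females, against 43.6 and 43.5 CPM in WT females, a ratio of 0.548. gH2AX was 22.8 and 22.8 CPM in KO females, against 46.3 and 43.7 CPM in WT females, a ratio of 0.506. The female groups stood apart in every assay for Dctd, as in all 17 block bins. Nothing is read from this, since the contrast of KO with WT females chose the block. The bins of Ing2 and Cdkn2aip together had ratios of 0.521 for input, 0.507 for H2AX and 0.511 for gH2AX.

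**Figure D3:**
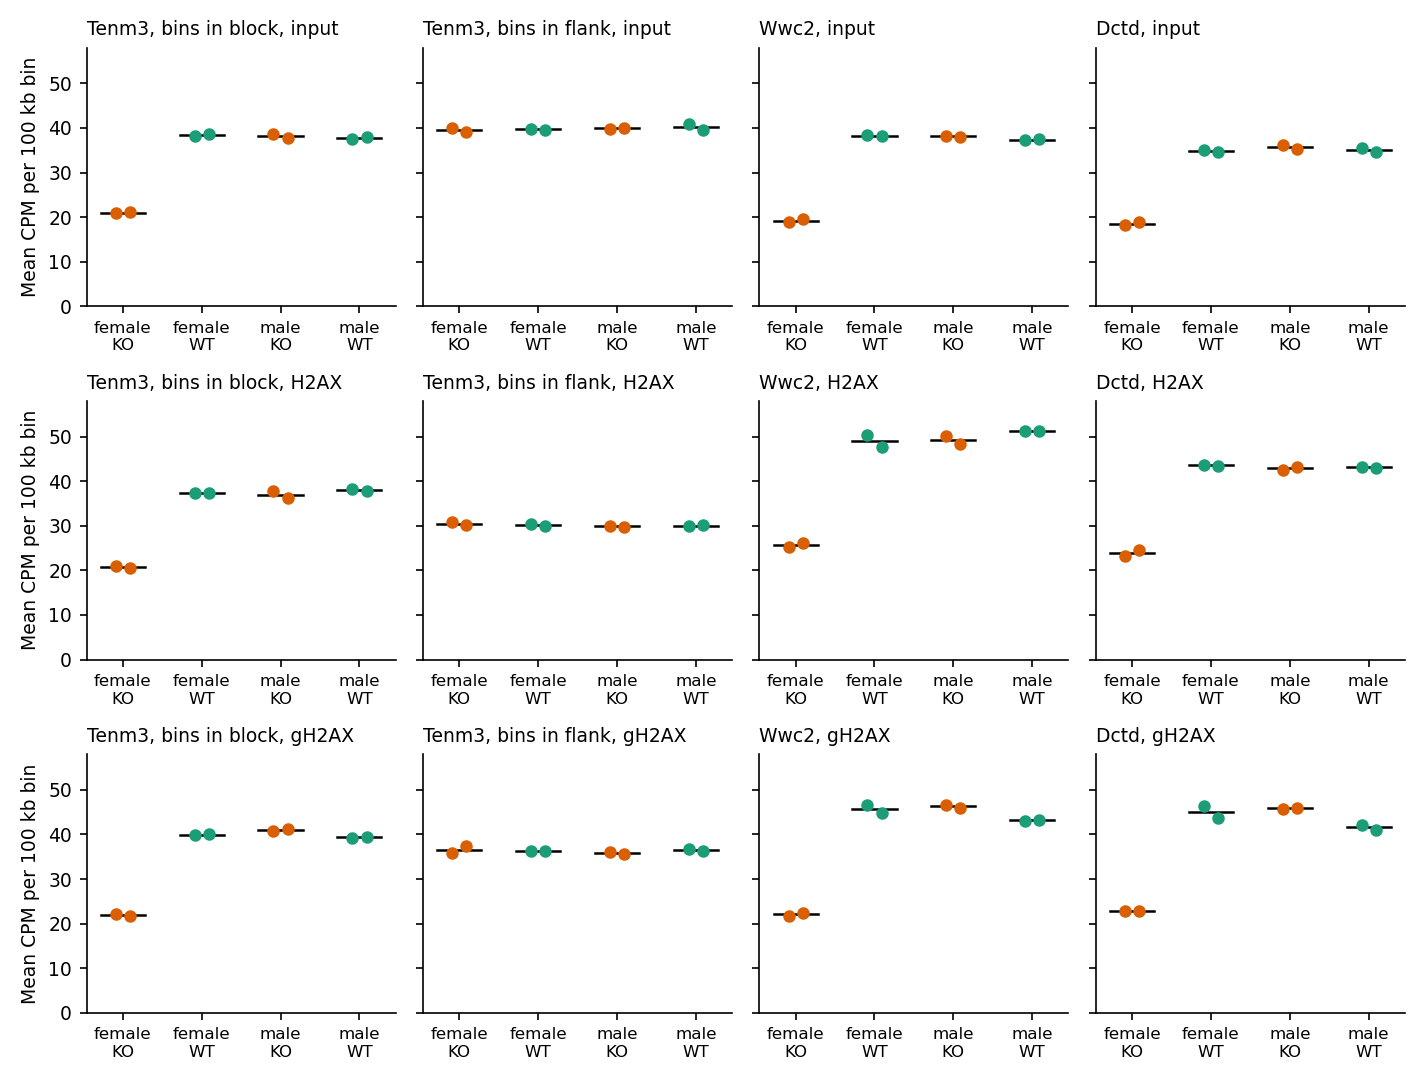
Mean CPM per 100 kb bin (y axis) of each library over the Tenm3 bins in the block, the Tenm3 bins in the flank, the Wwc2 bins and the Dctd bin, for input, H2AX and gH2AX from top to bottom. Points are libraries and bars the mean of 2 libraries. The KO female input points lie at 20.9 and 21.0 CPM over Tenm3 in the block and at 39.9 and 39.2 CPM over Tenm3 in the flank.

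Set over input, both marks had much the same level in KO and WT females. H2AX over input in the block was 1.05 in KO females and 1.04 in WT females, and gH2AX over input was 1.08 in KO females and 1.09 in WT females. By bin, the KO value over the WT value ran from 0.949 to 1.11 with a median of 1.01 for H2AX over input. It ran from 0.945 to 1.09 with a median of 0.984 for gH2AX over input. Wwc2 had an H2AX over input of 1.34 in KO females and 1.28 in WT females, and Dctd a gH2AX over input of 1.23 in KO females and 1.29 in WT females. These female ratios carry no test.

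**Figure D4:**
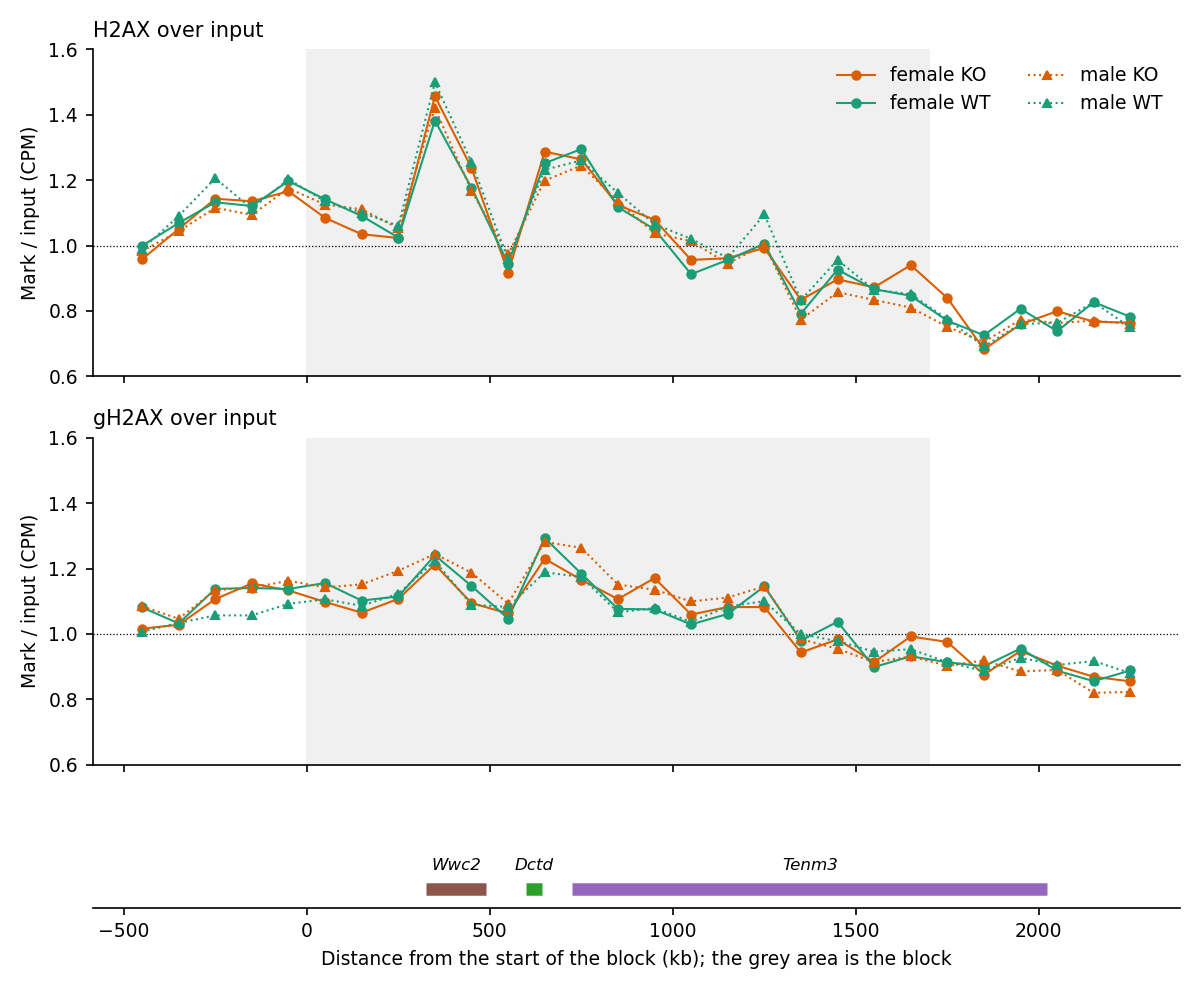
H2AX over input (top) and gH2AX over input (middle), as ratios of group mean CPM (y axis, which starts at 0.6), for each 100 kb bin against the distance from the block's start (x axis, kb). The 4 groups follow the same course, with the highest H2AX over input in the bin of Wwc2 and the claudin genes, between 1.382 and 1.499, and values below 1 in the distal flank.

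In males the block showed no difference between KO and WT in input that the test could call. None of the 17 bins was called by edgeR's quasi-likelihood test, where 0.222% of all bins were called. At an unadjusted p under 0.05 there was 1 such block bin, the bin of Ing2 at log2 -0.09 ± 0.034 (SE), where 1980 of all 25703 bins were under it. DESeq2 called 0 block bins. The block as a whole had 37.7 ± 0.306 CPM in KO males and 37.4 ± 0.298 CPM in WT males (SD, n = 2 each; exact two-sided permutation p = 0.667). With 2 libraries against 2, that test cannot go below 0.333.

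H2AX in males likewise had 0 of 17 block bins called, where 0.191% of all bins were called. At an unadjusted p under 0.05 there were 3 block bins, where 1983 of all 25703 bins were under it, and DESeq2 called 0 block bins. The block had 39.9 and 38.6 CPM in KO males, against 40.3 and 40.1 CPM in WT males, a ratio of 0.976 (exact two-sided permutation p = 0.333). Without KO male H2AX replicate 1 the block's log2 change of KO against WT males was -0.0596, where it was -0.0354 with all libraries.

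gH2AX in the block was slightly higher in KO than in WT males. The block had 42.0 and 42.1 CPM in KO males, against 40.3 and 40.2 CPM in WT males, a ratio of 1.05 (log2 0.07). The groups did not overlap, and the exact two-sided permutation p was 0.333, the smallest this design gives. Of the 17 bins, 9 were called higher and 0 lower, or 52.9%, where 44.7% of all bins were called, 22.4% higher and 22.2% lower. The median log2 change of the block bins was 0.08, against -0.01 over all bins.

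The called bins lay between Cdkn2aip and the middle of Tenm3, with uncalled bins among them. The Dctd bin rose most, with 45.7 and 46.0 CPM in KO males, against 42.1 and 41.1 CPM in WT males (log2 0.14 ± 0.036, adjusted p = 0.000709, edgeR). The Wwc2 bins rose by 0.08 (adjusted p = 0.0476) and 0.12 (adjusted p = 0.00409) on the log2 scale in edgeR. In Tenm3, 5 of the 10 block bins rose, by 0.09 to 0.11, all of them in the part nearer its 3′ end. Not called were the bin at 500 to 600 kb (0.03, adjusted p = 0.56, edgeR), the other 5 Tenm3 bins, the bin of Ing2 and the proximal edge bin. The bin at 500 to 600 kb lies mostly between Wwc2 and Dctd but also holds the annotated start of Dctd.

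The male gH2AX rise was not limited to the block. In the proximal flank 4 of 5 bins were also called higher, with a median log2 change of 0.09, and in the distal flank 0 of 6 were higher and 1 was lower, by -0.13 (adjusted p = 0.00491, edgeR). The count of block bins depended on single libraries. It was lower whenever 1 of the 4 male libraries was left out, as was the count over all bins. With 1 library left out, the block's log2 change stayed between 0.0630 and 0.0670. DESeq2 called 4 block bins higher, where it called 4874 of all bins higher and 4361 lower.

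**Figure D5:**
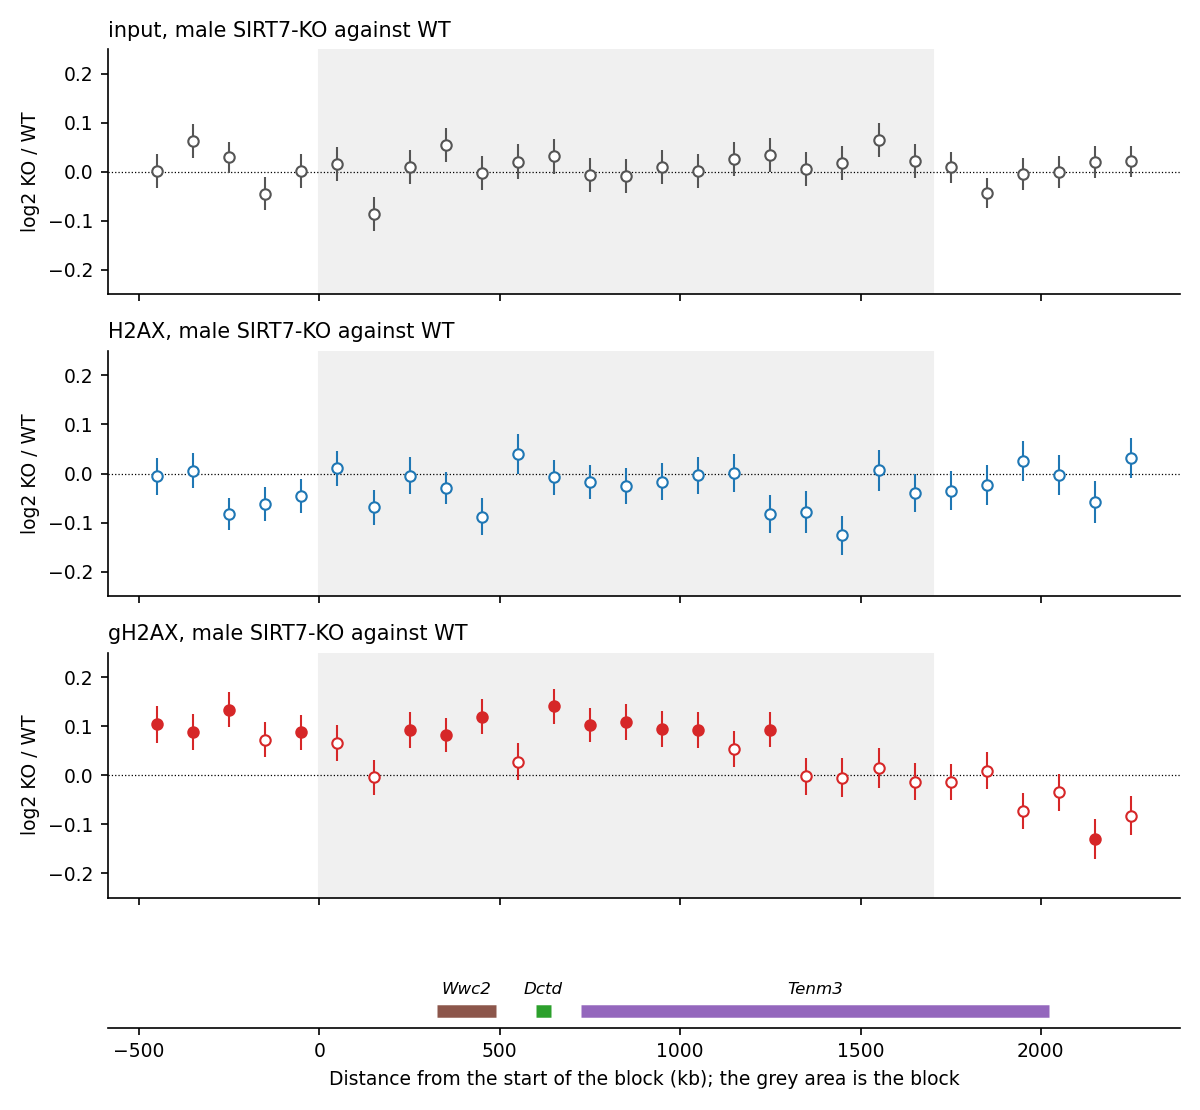
Log2 change of KO over WT males (y axis) for each 100 kb bin against the distance from the block's start (x axis, kb), in input, H2AX and gH2AX from top to bottom; bars are ± SE, filled points have an adjusted p under 0.05 and open points do not. No input or H2AX bin is filled, while 9 block bins and 4 proximal flank bins of gH2AX are filled above 0 and 1 distal flank bin below 0.

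Over the 3 genes, the male levels lay near those of WT females. The Tenm3 block bins had 38.7 and 37.9 CPM in KO male input, against 37.6 and 38.0 CPM in WT male input, and these groups overlapped. H2AX there was 37.7 and 36.1 CPM in KO males, against 38.2 and 37.8 CPM in WT males, and gH2AX was 40.7 and 41.1 CPM in KO males, against 39.3 and 39.4 CPM in WT males. In input the order of the group means over these bins was WT female, KO male, WT male and KO female, and only the last step exceeded the spread of the libraries.

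Wwc2 had 38.2 and 38.1 CPM in KO male input, against 37.2 and 37.6 CPM in WT male input. Its H2AX was 50.2 and 48.3 CPM in KO males, against 51.3 and 51.4 CPM in WT males, and its gH2AX was 46.6 and 46.0 CPM in KO males, against 43.1 and 43.2 CPM in WT males. The male groups did not overlap in any of these 3 assays, with a ratio of 1.02 in input, 0.959 in H2AX and 1.07 in gH2AX (exact two-sided permutation p = 0.333 in each, the smallest possible). The edgeR test called neither Wwc2 bin in input or H2AX. Over the bins of Ing2 and Cdkn2aip together, the male groups did not overlap in any of the 3 assays either. The share of such bins over the genome was not counted, so nothing is read from the lack of overlap. Dctd had 36.3 and 35.3 CPM in KO male input, against 35.4 and 34.6 CPM in WT male input, and 42.5 and 43.3 CPM in KO male H2AX, against 43.2 and 42.9 CPM in WT male H2AX. The Dctd groups overlapped in both.

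The course of the marks along the block was tested in males, over KO and WT together. H2AX exceeded input in 10 of 17 block bins and lay below it in 5, where 84.3% of all bins were called, 41.8% above and 42.5% below. The bin of Wwc2, Cldn24 and Cldn22 was highest, at log2 0.54 ± 0.024 (adjusted p = 8.24e-59, edgeR), followed by the first Tenm3 bin at its 3′ end, at 0.33 ± 0.0245. H2AX was lowest in the Tenm3 bin at 1300 to 1400 kb, at -0.31 ± 0.028, and below input in all 6 bins of the distal flank, at -0.31 to -0.52.

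gH2AX exceeded input in 13 of 17 block bins and lay below it in 2, where 81% of all bins were called, 38.8% above and 42.2% below. The Dctd bin, at log2 0.31 ± 0.025 (adjusted p = 1.31e-26, edgeR), and the first Wwc2 bin, at 0.31 ± 0.0245, were highest. All 5 proximal flank bins were above input and all 6 distal flank bins below.

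gH2AX relative to H2AX was higher in 10 block bins and lower in 2, where 63.4% of all bins were called, 32.2% higher and 31.2% lower. Both lower bins were those of Wwc2, at log2 -0.24 ± 0.024 (adjusted p = 3.08e-18, edgeR) and -0.09 ± 0.025 (adjusted p = 0.000776, edgeR). Of the 10 higher bins, 8 were Tenm3 bins, with the largest difference of 0.31 ± 0.028 (adjusted p = 1.16e-21, edgeR) at 1300 to 1400 kb. Wwc2 thus carried more H2AX than gH2AX relative to input, and the distal part of Tenm3 the reverse.

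A lower input level of this size in KO females was found in no other autosomal bin tested. This is a description and not a test, since the female contrast chose the block. The cut-off of 0.6 used here lay just above the highest inner ratio, 0.581. Of 24033 autosomal bins tested, 15 had a KO to WT ratio under 0.6 in female input, or 0.0624%, and all 15 were the inner bins of the block. In male input 1 bin was under 0.6, or 0.00416%, outside the window. Beyond the window a single autosomal bin had a female input ratio under 0.75 or above the reciprocal of 0.75, and it ran the other way. That bin, chr11:120500001-120600000, lies next to the bin of Sirt7 and holds Slc25a10, Gcgr and Mcrip1, among others. It had 64.1 CPM in KO female input, against 37.1 CPM in WT female input, and 64.3 CPM in KO male input, against 35.4 CPM in WT male input. Unlike the block, it differed in both sexes.

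Genes related to these 3, elsewhere in the genome, were read through their own bins. The lists held 9 teneurin, latrophilin and FLRT genes, 19 genes of the WWC and Hippo pathway and 24 genes of pyrimidine deoxynucleotide supply, 52 genes in 50 bins. In KO against WT females, none was called for input, H2AX or gH2AX, where 0.183%, 0.152% and 1.01% of all bins were called, and none was called for male input or H2AX. Between 2 and 10 of the 50 bins had an unadjusted p under 0.05 in these 5 comparisons by edgeR, and DESeq2 called 0 in each. In males these were 7 bins for input and 2 for H2AX, where 1980 and 1983 of all 25703 bins had such a p. The female counts over all bins are not given here.

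Male gH2AX alone gave calls in these lists, all higher in KO. Of 9 teneurin, latrophilin and FLRT bins 2 rose, those of Flrt1 (log2 0.20 ± 0.034, adjusted p = 3.54e-07, edgeR) and of the latrophilin Adgrl1 (0.18 ± 0.035). The list median was 0.02. Of 19 Hippo bins 11 rose, led by Wwc1, which encodes KIBRA, at 0.19 ± 0.035 and the phosphatase gene Ptpn14 at 0.19 ± 0.035, with a median of 0.11. The kinase gene Lats2 rose by 0.17 ± 0.035 and Nf2, which encodes merlin, by 0.16 ± 0.035. Of 23 pyrimidine bins 12 rose, led by the thymidine kinase gene Tk1 at 0.20 ± 0.035 and Cad, which encodes the enzyme of the first steps of pyrimidine synthesis, at 0.18 ± 0.035, with a median of 0.08. Dtymk, the thymidylate kinase gene, rose by 0.16 ± 0.035 and Cda, the cytidine deaminase gene, by 0.16 ± 0.035. Over all bins, with or without genes, 22.4% were called higher in this comparison, and the median log2 change was -0.01. The share among bins that hold genes was not counted, so the lists are not set apart from other genes. DESeq2 called 23 of the 50 list bins, 0 of them lower, where it called 4874 of all bins higher and 4361 lower. The bins of Tenm1, Tenm2 and Tenm4, at -0.05, -0.02 and 0.02, were not called.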

How the data were processed

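The deposited counts are raw read counts per 100 kb bin, 1 column per library. The authors worked on mm10 with Bowtie2 2.2.9, Trimmomatic 0.36 and SAMtools 0.1.19, per the submitters' processing notes, which also name MACS2 2.2.7.1, deepTools 2.4.2 and FastQC 0.11.3. The handling of duplicates and multiple alignments is not given in the sources used here. Another 24 columns matched no labelled sample and were not used. The members and gene lists were chosen with earlier results of these data known.

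Bins of chromosomes 1 to 19 and X were filtered with filterByExpr and fitted in R 4.3.3 with edgeR 4.0.16 (quasi-likelihood F test, two-sided, TMM factors from autosomal bins), each assay with a mean per sex and genotype, and comparisons of assays in 1 fit of the 24 libraries. Bins were called at a Benjamini-Hochberg adjusted p under 0.05 over all bins tested (25702 for gH2AX, 25703 otherwise). The scripts were tested on simulated data. Alternatives were DESeq2 1.42.0, RLE scaling, library totals, no filter, flank scaling, a replicate block and each library left out. Named were all protein-coding genes of the window and up to 4 called genes per list. Gene positions are RefSeq's for GRCm38.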

Additional observations from a re-analysis of the deposited data

Results flagged for a closer look

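The gH2AX level of the block had opposite directions of KO against WT in the sexes. The log2 ratio was -0.886 in females, with both KO libraries below both WT libraries, and 0.0650 in males, with both KO libraries above both WT libraries. The difference between the sexes was not tested, because the female contrast chose the block. Female input had a log2 ratio of -0.87 over the same bins and male input one of 0.01. No other value of the block met the conditions for a closer look; groups of 2 libraries are too small for a check of single outlying libraries.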

How the results depend on the processing

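None of the alternatives run turned the sign of a log2 change of the block. The balance of higher to lower calls over all bins turned in 4 cases: male input (25 to 32) became 21 to 19 without WT replicate 2, male H2AX (27 to 22) became 14 to 17 in DESeq2 and 161 to 167 without KO replicate 1, and gH2AX against H2AX in males (8272 to 8021) became 8114 to 8151 with library totals. DESeq2 called 31 bins in male input (57 by edgeR), 31 in male H2AX (49), 102 in female gH2AX (260) and 4 block bins in male gH2AX (9). Leaving out 1 library at a time gave 37 to 69 bins in male input, with 37 without WT replicate 1, and 26 to 328 in male H2AX, with 328 without KO replicate 1 and 26 and 30 without WT replicates 1 and 2. It gave 75 to 324 in female gH2AX, with 75 without KO replicate 2, 88 without WT replicate 1 and 166 without KO replicate 1. It gave 6999 to 8328 in male gH2AX (11482 with all libraries), with 6999 without WT replicate 2 and 7508 without KO replicate 2. Block bins called ranged from 0 to 1 in male H2AX and from 2 to 5 in male gH2AX. The cause was not tested beyond the smaller number of libraries. The block's log2 change in male H2AX ranged from -0.0596 to -0.0117 (-0.0354 with all libraries). Relative to the flanks it was -0.88 in female input (-0.87), -0.0075 in male H2AX and 0.0452 in male gH2AX (0.0650), and with library totals 0.0716 in male gH2AX. Library totals split the female gH2AX calls into 74 higher and 226 lower, and DESeq2 into 9 and 93, against 107 and 153. The replicate numbers are shared but no label pairs the libraries, and deviations of same-numbered KO and WT libraries correlated by -0.00896 to 0.0433. With the number as a block, 9 block bins were called in male gH2AX, and 362 bins in female gH2AX. With 2 libraries per group, changes below those called may have been missed.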
